A study of Homo sapiens with 6 samples.

Results

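In all, 10 genes of the intermediate filament family were followed in undifferentiated H7 human embryonic stem cells (hESCs) with and without the kinase S6K1. They were VIM, NES, NEFL, the keratins KRT7, KRT8, KRT18 and KRT19, and the lamins LMNA, LMNB1 and LMNB2, chosen by symbol, 10 of 61155 gene symbols in the count table. H7 is an established hESC line, kept without feeder cells in TeSR-E8 medium. The series held 3 wild-type (WT) libraries and 3 libraries of a knockout, named S6K1-/- here, made with CRISPR guides against a pair of exons of RPS6KB1, the gene of S6K1. The labels call the genotype S6K1 knockdown and name week 5, whereas their protocols and the study's methods describe a knockout and undifferentiated cells. The S6K1-/- cells were expanded clonally and are 1 clone (clone #1), so that an effect of the kinase and a trait of the clone cannot be told apart. Replicates are libraries, not stated to be separate cultures, so that p-values measure the spread between libraries, which may be technical.

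Intermediate filaments are ropes of coiled-coil proteins that give cells and nuclei mechanical strength. Keratins assemble as pairs of a type II protein, such as KRT7 or KRT8, with a type I protein, such as KRT18 or KRT19, and KRT8 with KRT18 is the first pair of simple epithelia and of the early embryo. Vimentin (VIM) builds filaments in mesenchymal and neural progenitor cells, nestin (NES) joins vimentin filaments in progenitors, and the neurofilament light chain (NEFL) is a filament subunit of neurons. Lamins line the inner nuclear membrane: B-type lamins (LMNB1, LMNB2) are found in nearly all cells, whereas A-type lamins (LMNA) are low in pluripotent cells and rise with differentiation.

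VIM fell by 31.6% in S6K1-/- against WT hESCs, and it was the 1 member past the study's threshold of an adjusted p under 0.001. KRT7, the least abundant member, fell by 43.5%, passed an adjusted p under 0.05 and lay just outside 0.001. KRT19 fell by 14.7% and LMNA fell by 13.0%, past an adjusted p under 0.05 only. For KRT8, KRT18 and NES the S6K1-/- level differed from WT by -4.06%, -1.94% and -4.16%, and for LMNB1, LMNB2 and NEFL the S6K1-/- level was higher by 6.85%, 6.54% and 8.12% without passing either threshold. All 10 members passed the filter on low counts. At an adjusted p under 0.001 by the quasi-likelihood test of edgeR (Benjamini-Hochberg adjustment), 1 of 10 was lower, beside 2.54% of the 19521 genes tested. None was higher, beside 1.42% of the genes tested, and none by DESeq2's Wald test. At an unadjusted p under 0.05, 4 members were lower and 3 higher, beside 14.5% and 11.8% of the genes tested. At an adjusted p under 0.05, 4 of 10 were lower, beside 8.31%, and none was higher, beside 5.47%. The median log2 fold change of the members was -0.06, against -0.0024 for all genes tested.

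Library totals lay between 21896698 and 24473013 counts, and the 10 members took from 0.215% to 0.230% of a library. RPS6KB1, the targeted gene, had from 777 to 831 counts in WT and from 438 to 464 in S6K1-/- libraries. All 12 pluripotent stem cell markers were detected, with a summed level of 8345 to 8541 CPM (counts scaled to a common library size) in WT and 7817 to 7941 CPM in S6K1-/- libraries.

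The order of the levels was compared after dividing CPM by the exonic length of the canonical GENCODE transcript, in CPM per kb. KRT8 was highest in WT hESCs at 354 ± 10.4 CPM per kb and KRT18 followed at 304 ± 12.5 (SD, n = 3 each). NES stood at 79.4 ± 1.95, LMNB1 at 73.6 ± 0.282 and LMNB2 at 60.9 ± 1.06 CPM per kb (SD, n = 3 each). KRT19 with 33.7 ± 2.16, VIM with 29.8 ± 2.01, NEFL with 19.5 ± 1.32, LMNA with 12.2 ± 0.716 and KRT7 with 3.10 ± 0.479 CPM per kb (SD, n = 3 each) were lower. No neighbours in this order overlapped between their WT libraries. In S6K1-/- hESCs LMNB1 (78.7 ± 2.07) and NES (76.1 ± 1.48) changed places, as did NEFL (21.1 ± 0.290) and VIM (20.4 ± 1.01, all in CPM per kb, SD, n = 3). The libraries of both of these pairs overlapped, so neither order exceeded the spread.

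**Figure D1:**
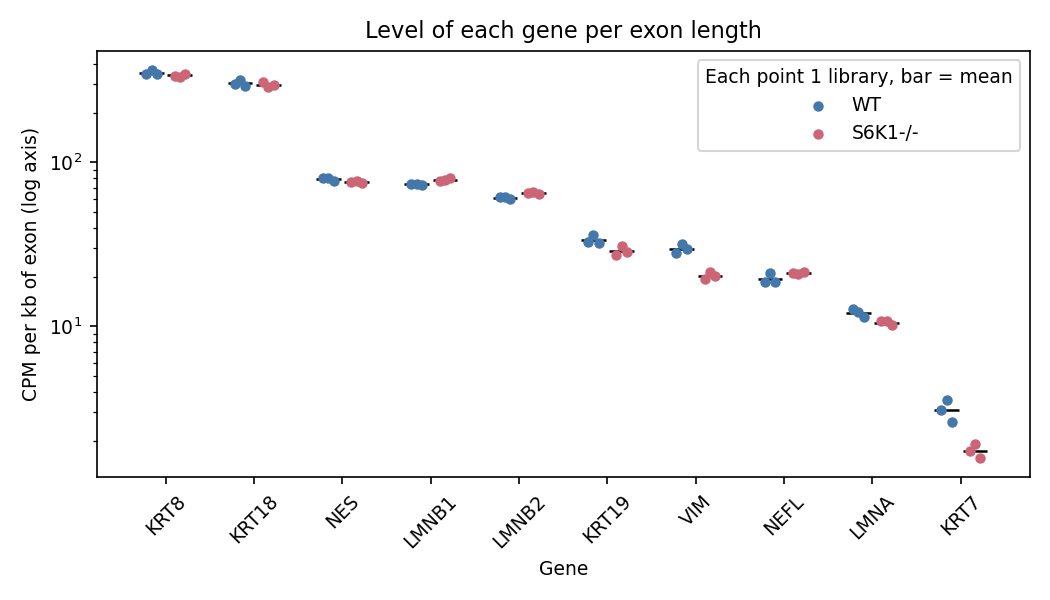
Level of each gene in CPM per kb of exon, on a log axis, with WT libraries in blue, S6K1-/- libraries in red and bars at the group means. The libraries of KRT8 and KRT18 lie between 287 and 366 CPM per kb and KRT7 lies lowest, at 3.10 in WT and 1.75 in S6K1-/- hESCs.

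Among the type II keratins, KRT8 spans bases 52897187 to 52949954 of chromosome 12 (minus strand, GRCh38, GENCODE 44, as for all positions given here), with 8 exons in its canonical transcript. KRT8 had 15102, 16036 and 14400 counts in WT replicates 1, 2 and 3 and 14132, 14231 and 13486 in S6K1-/- replicates 1, 2 and 3. After scaling this was 620, 652 and 620 CPM against 602, 594 and 620 CPM. The highest S6K1-/- library lay just below the lowest WT library, at 619.5 against 619.9 CPM, and the other S6K1-/- libraries lay clearly below. The log2 fold change was -0.06 (standard error, SE, 0.041, 95% CI -0.15 to 0.03, edgeR adjusted p = 0.389).

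KRT7, a keratin of glandular and trophoblast epithelium, lies on the plus strand of the same chromosome from 52232520 to 52252186, with 9 exons. It had 122, 143 and 99 counts in WT and 66, 75 and 56 in S6K1-/- libraries, or 5.01, 5.82 and 4.26 CPM against 2.81, 3.13 and 2.57 CPM. The WT libraries spread widely, and each still lay above each S6K1-/- library. For KRT7 the log2 fold change was -0.82 (SE 0.143, 95% CI -1.13 to -0.52, edgeR adjusted p = 0.00103). KRT7 passed 0.001 without WT replicate 3 (edgeR adjusted p = 9.18e-04) and without the filter on low counts (4.30e-07), and in the other fits that left out a library its adjusted p was from 0.00259 to 0.00823. The fit without the filter called more genes of every kind, 982 lower and 591 higher against 496 and 278 with it. By DESeq2's Wald test the adjusted p of KRT7 was 0.00204. Of 12 markers of amnion and trophoblast, which also use KRT7, 2 (HAND1 and WNT6) had no count and 6 had at most 3 counts in every library. Their summed level was 21.9 to 24.1 CPM in WT and 19.8 to 22.9 CPM in S6K1-/- libraries, above the level of KRT7 itself. Most of that sum was GABRP, a GABA receptor subunit, with 14.5 to 16.8 CPM in WT and 13.6 to 15.9 CPM in S6K1-/- libraries, and the other 11 markers summed to 7.23 to 7.97 CPM in WT and 6.14 to 6.94 CPM in S6K1-/- libraries. Their part in the KRT7 difference was not tested.

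Of the type I keratins, KRT18 lies on the plus strand of chromosome 12 from 52948871 to 52952906, where exons of other KRT8 transcripts than the canonical one overlap it on the other strand. KRT18 had 10379, 11044 and 9629 counts in WT and 10264, 9725 and 9184 in S6K1-/- libraries, or 426, 449 and 415 CPM against 437, 406 and 422 CPM. The groups overlapped, and the log2 fold change of -0.03 (SE 0.044, 95% CI -0.12 to 0.07, edgeR adjusted p = 0.747) turned to 0.0052 without WT replicate 2.

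KRT19, a type I keratin of simple and ductal epithelia, lies on the minus strand of chromosome 17 from 41523617 to 41528308, with 6 exons. It had 1108, 1238 and 1042 counts in WT and 889, 1025 and 856 in S6K1-/- libraries. These were 45.5, 50.4 and 44.9 CPM against 37.9, 42.8 and 39.3 CPM, with each S6K1-/- library below each WT library. The log2 fold change was -0.23 (SE 0.060, 95% CI -0.36 to -0.10, edgeR adjusted p = 0.0175). It was above 0.05 without WT replicate 2 (0.0669) and without S6K1-/- replicates 1 and 3 (0.102 and 0.0699, all edgeR adjusted p).

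VIM lies on the plus strand of chromosome 10 from 17228241 to 17237593, with 10 exons. It had 1466, 1692 and 1482 counts in WT and 980, 1103 and 958 in S6K1-/- libraries, or 60.2, 68.8 and 63.8 CPM against 41.7, 46.1 and 44.01 CPM. The gap between the groups, from 46.1 to 60.2 CPM, was wider than the range within either group. VIM fell by 0.55 in log2 units (SE 0.056, 95% CI -0.67 to -0.43, edgeR adjusted p = 6.22e-06). Leaving out any 1 library gave a VIM difference from -0.59 to -0.50, with an edgeR adjusted p of at most 1.19e-04.

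NES lies on the minus strand of chromosome 1 from 156668763 to 156677407, with 4 exons. It had 10922, 11013 and 9978 counts in WT and 10000, 10310 and 9024 in S6K1-/- libraries, or 449, 448 and 430 CPM against 426, 431 and 415 CPM. The highest S6K1-/- library reached into the WT range. The log2 fold change was -0.06 (SE 0.039, 95% CI -0.15 to 0.02, edgeR adjusted p = 0.358).

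VIM and NES proteins meet in the same filament, and VIM passed the threshold whereas NES did not. Whether the log2 fold changes of VIM and NES differ was not tested, and their 95% CIs do not overlap. The 250 bases before each start site are therefore shown side by side, from the RefSeq promoter table of GRCh38.p14, with motif matches in capitals. The VIM window is chr10:17227991-17228240 on the plus strand and the NES window chr1:156677408-156677657 on the minus strand, both written 5′ to 3′.
VIM: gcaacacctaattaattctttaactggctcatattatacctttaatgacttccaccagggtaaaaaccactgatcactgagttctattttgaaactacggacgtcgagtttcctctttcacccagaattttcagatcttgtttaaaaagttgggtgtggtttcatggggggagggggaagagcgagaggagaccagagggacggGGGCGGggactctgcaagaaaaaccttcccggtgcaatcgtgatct
NES: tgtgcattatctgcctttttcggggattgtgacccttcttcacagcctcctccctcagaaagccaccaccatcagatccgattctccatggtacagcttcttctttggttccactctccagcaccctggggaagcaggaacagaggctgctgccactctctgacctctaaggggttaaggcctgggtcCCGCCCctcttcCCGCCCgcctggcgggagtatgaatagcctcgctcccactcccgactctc
The capitals mark the GC box (GGGCGG on either strand), with 1 match in VIM, 46 bases before the start site, and 2 in NES, 62 and 50 bases before it. Of 35116 promoter windows of this length, 42.6% held a GC box. The letters GGAATG (TEAD), TGANTCA (AP-1), CCAAT and TATAAA, and the SRF CArG box, each searched on both strands, were in neither window, beside 11.9%, 6.57%, 32%, 10.7% and 1.16% of all windows. The GC content was 46.0% in the VIM window and 58.0% in the NES window. Only these windows were searched for VIM and NES, so any other start site of either gene is not covered. The table held entries for 6 of the 10 members, VIM, NES, KRT8, LMNA, LMNB1 and LMNB2, and none was printed for KRT7, KRT18, KRT19 and NEFL.

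NEFL lies on the minus strand of chromosome 8 from 24950955 to 24956721, with 4 exons. It had 1636, 1854 and 1563 counts in WT and 1772, 1790 and 1672 in S6K1-/- libraries, or 67.2, 75.4 and 67.3 CPM against 75.5, 74.8 and 76.8 CPM. WT replicate 2 lay among the S6K1-/- libraries and the other two WT libraries lay below them. The log2 fold change was 0.11 (SE 0.049, 95% CI 0.0085 to 0.22, edgeR adjusted p = 0.153), and without WT replicate 2 the adjusted p was 0.0147.

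LMNA, which encodes lamins A and C, lies on the plus strand of chromosome 1 from 156082573 to 156140081, with 12 exons. It had 993, 954 and 842 counts in WT and 801, 820 and 705 in S6K1-/- libraries, or 40.8, 38.8 and 36.2 CPM against 34.1, 34.2 and 32.4 CPM. Each S6K1-/- library lay below each WT library. For LMNA the log2 fold change was -0.20 (SE 0.057, 95% CI -0.32 to -0.08, edgeR adjusted p = 0.0270). The adjusted p was above 0.05 in each fit that left out a library other than WT replicate 3, from 0.0541 to 0.144, and it was 0.101 with DESeq2's Wald test.

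LMNB1 lies on the plus strand of chromosome 5 from 126776623 to 126837020, with 11 exons. It had 5177, 5253 and 4926 counts in WT and 5208, 5428 and 5087 in S6K1-/- libraries. In CPM these were 213, 214 and 212 against 222, 227 and 234, so that each S6K1-/- library lay above each WT library. For LMNB1 the log2 fold change was 0.10 (SE 0.038, 95% CI 0.01 to 0.18, edgeR adjusted p = 0.118).

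LMNB2 lies on the minus strand of chromosome 19 from 2427638 to 2456959, with 12 exons. It had 6956, 7000 and 6429 counts in WT and 7052, 7289 and 6484 in S6K1-/- libraries, or 286, 285 and 277 CPM against 300.3, 304 and 298 CPM. As for LMNB1, the groups did not overlap, and the log2 fold change of 0.09 (SE 0.038, 95% CI 0.01 to 0.17, edgeR adjusted p = 0.131) passed neither threshold. Over the 10 members, every S6K1-/- library was below every WT library for 5 (VIM, KRT7, KRT8, KRT19 and LMNA), beside 16.7% of the genes tested, and above for 2 (LMNB1 and LMNB2), beside 14% of the genes tested.

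**Figure D2:**
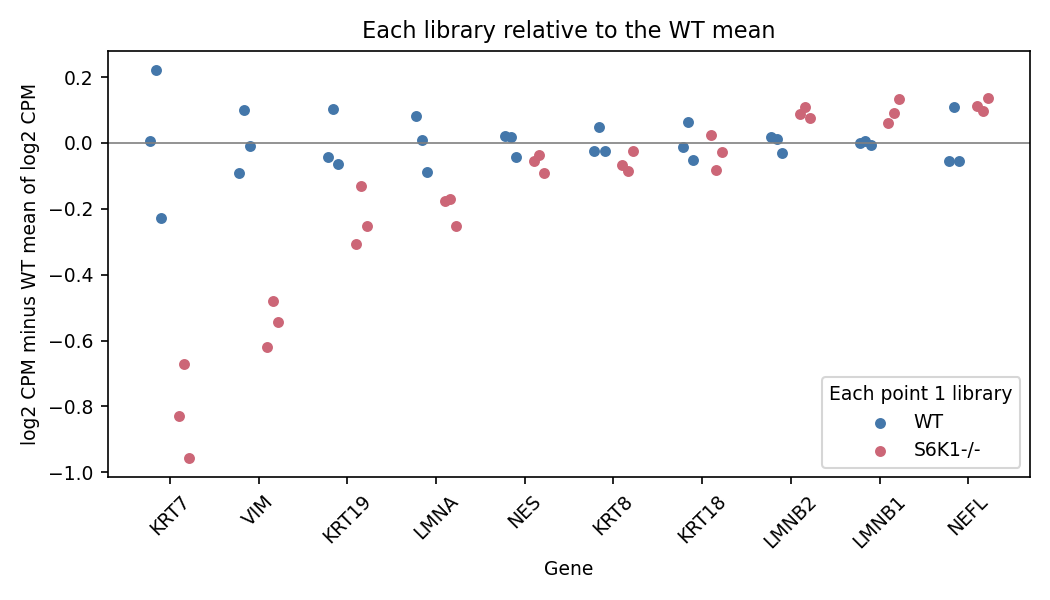
Each library as log2 CPM minus the WT mean of log2 CPM, ordered by the fitted difference, with WT in blue and S6K1-/- in red. The S6K1-/- libraries of KRT7 and VIM lie clearly below 0, whereas those of LMNB1, LMNB2 and NEFL lie slightly above it.

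**Figure D3:**
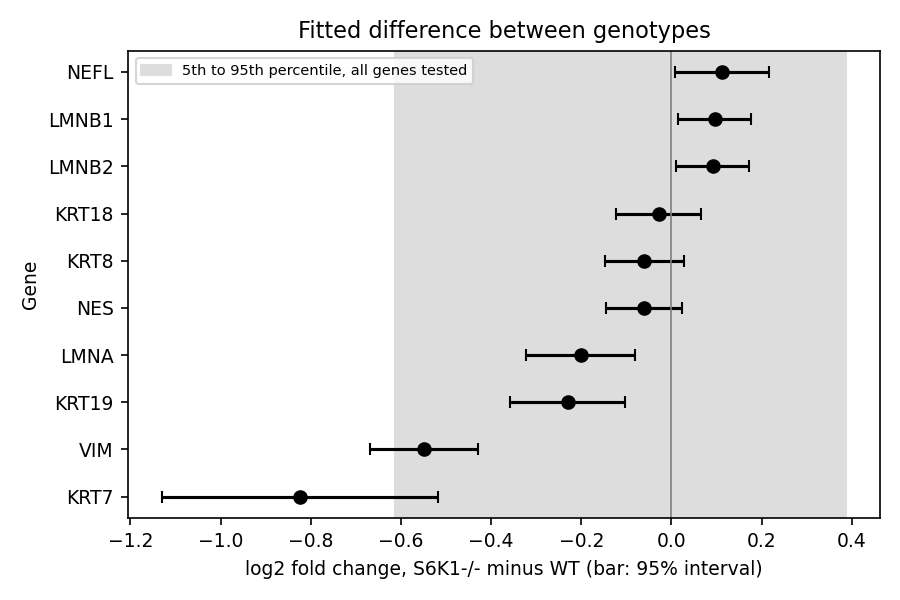
Fitted log2 fold change of S6K1-/- minus WT hESCs (points) with its unadjusted 95% CI (bars), and the 5th to 95th percentile of all genes tested, from -0.61 to 0.39, in grey. KRT7 at -0.82 is the member whose point lies outside the grey band, and VIM at -0.55 lies near its edge.

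In all, 4 ratios of levels per exon length were taken within each library, for which the scaling between libraries cancels. KRT8 to KRT18, the keratin partners, was 1.16 ± 0.0192 in WT and 1.14 ± 0.0408 in S6K1-/- hESCs (SD, n = 3 each) and the libraries overlapped (exact permutation test, two-sided p = 0.60). LMNB1 to LMNB2 was 1.21 ± 0.0182 and 1.21 ± 0.0401 (SD, n = 3 each; exact permutation p = 0.90). LMNA to LMNB1 was 0.174, 0.165 and 0.155 in WT and 0.140, 0.137 and 0.126 in S6K1-/- hESCs, a log2 difference of -0.30 with no overlap. VIM to the sum of KRT8 and KRT18 was 0.0430, 0.0467 and 0.0462 in WT and 0.0300, 0.0345 and 0.0316 in S6K1-/- libraries, a log2 difference of -0.50 with no overlap. For both of these ratios the exact permutation p was 0.10, the smallest that 3 against 3 libraries allow, and the adjusted p over the 4 ratios was 0.20 by the same exact test.

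**Figure D4:**
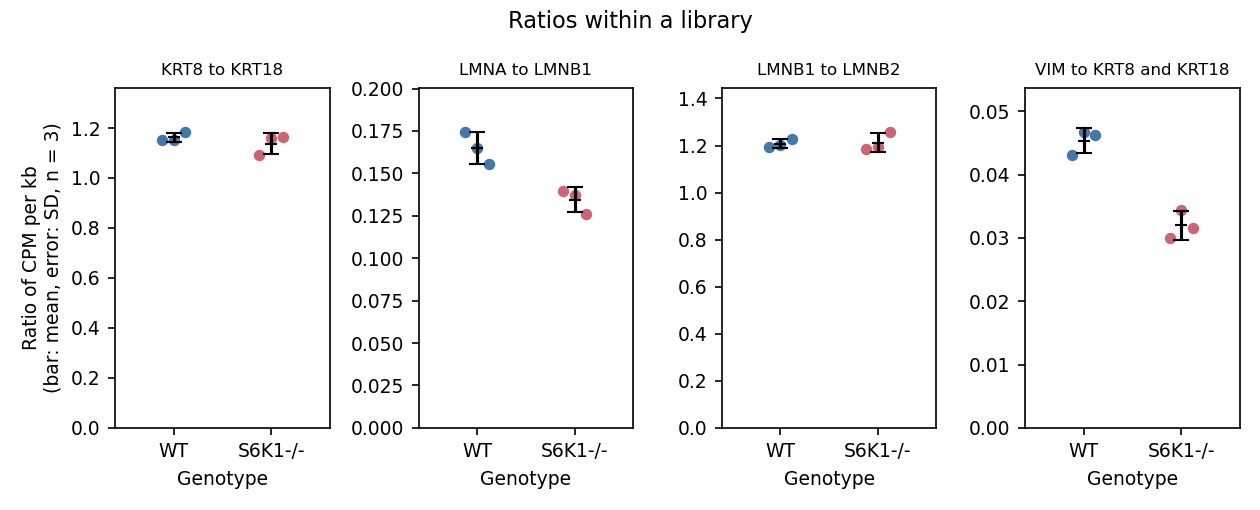
Ratio of CPM per kb between members within each library (points), with the mean and SD of 3 libraries per genotype. The keratin ratio and the ratio of the B-type lamins overlap between genotypes, whereas LMNA to LMNB1 and VIM to KRT8 and KRT18 are lower in each S6K1-/- library than in each WT library.

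Some members share sequence or position with other genes, which touches how their reads could be counted. Of the 2154 exonic bases of the VIM transcript, 45.6% lie under exons of antisense lncRNAs, 641 bases of them under VIM-AS1. The share was 26.5% for KRT18, under KRT8 exons, 18.8% for NEFL, 13.6% for KRT7, all under KRT7-AS, and 0 for the other members. The libraries were made with a stranded kit, but the strand setting of the counting is not stated in the sources used here, and reads in shared stretches cannot be told apart without it. VIM-AS1 had 402, 453 and 390 counts in WT and 259, 334 and 253 in S6K1-/- libraries, with a log2 fold change of -0.50 (SE 0.087, edgeR adjusted p = 0.00112). Its counts were from 26.3% to 30.3% of those of VIM in a library. KRT7-AS had 31, 34 and 17 counts in WT and 13, 19 and 14 in S6K1-/- libraries, where WT replicate 3 lay within the S6K1-/- range, with a log2 fold change of -0.77 (SE 0.284, edgeR adjusted p = 0.0915).

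**Figure D5:**
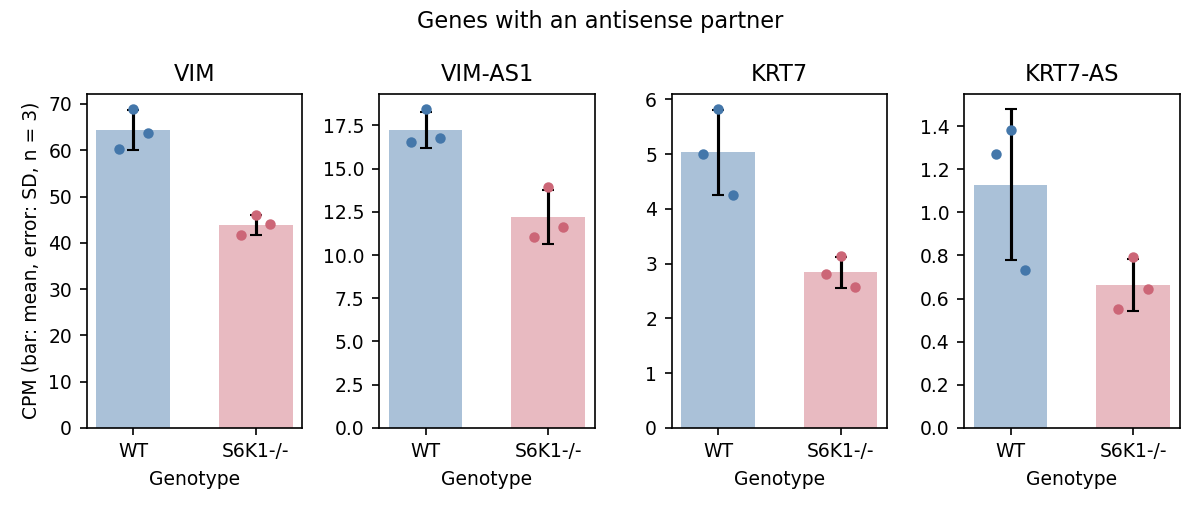
CPM of VIM, VIM-AS1, KRT7 and KRT7-AS per library (points), with mean (bars) and SD (error, n = 3 per genotype). Mean VIM is 64.3 CPM in WT and 43.9 CPM in S6K1-/- hESCs, mean VIM-AS1 is 17.2 and 12.2 CPM, and mean KRT7-AS lies at 1.13 CPM in WT and 0.663 CPM in S6K1-/- hESCs with overlapping libraries.

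KRT8 and KRT18 have many pseudogene copies in the genome, and the aligner used does not split reads over introns. Of 50 KRT8 and 67 KRT18 pseudogene symbols, 27 and 28 had a count in at least 1 library. Their summed counts, which are not part of the KRT8 and KRT18 counts, equalled from 1.07% to 1.40% of the KRT8 count and from 0.389% to 0.588% of the KRT18 count of a library. Of the pseudogenes named after members, 5 of 123 passed the filter on low counts. None passed 0.001 by edgeR's or DESeq2's test, and at an unadjusted p under 0.05, 1 was lower and none higher, beside 14.5% and 11.8% of the genes tested. KRT8P12 had 109, 95 and 98 counts in WT and 71, 81 and 59 in S6K1-/- libraries, a log2 fold change of -0.46 (SE 0.133, edgeR adjusted p = 0.0317). KRT8P33, with 19, 13 and 15 counts in WT against 26, 24 and 12, had a log2 fold change of 0.45 (SE 0.298). KRT8P12 aligned to the KRT8 transcript over 422 of its 998 bases with 87.2% identity, and KRT8P3 over 1449 bases with 97.1% identity.

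Of the remaining intermediate filament genes, 10 of 71 passed the filter on low counts and none of these was called in either direction, nor by DESeq2's Wald test. At an unadjusted p under 0.05, 4 were lower and 1 was higher, beside 14.5% and 11.8% of the genes tested. Their median log2 fold change was -0.13. NEFM, the medium neurofilament subunit, had 1582, 1719 and 1467 counts in WT and 1691, 1824 and 1516 in S6K1-/- libraries, a log2 fold change of 0.14 (SE 0.049, edgeR adjusted p = 0.0826). KRT81, a hair keratin, had 41, 206 and 38 counts in WT and 29, 52 and 23 in S6K1-/- libraries, so that its log2 fold change of -1.39 (SE 0.521) rested on WT replicate 2.

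Among 18 plakin and linker genes, whose proteins tie intermediate filaments to junctions and to the other filament systems, 2 were lower at an adjusted p under 0.001 and none was higher, beside 2.54% and 1.42% of the genes tested. At an unadjusted p under 0.05, 7 were lower and 4 higher by edgeR's test, beside 14.5% and 11.8% of the genes tested. By the Wald test of DESeq2, 2 were lower and 1 was higher at an adjusted p under 0.001, and PKP1 was not among the lower genes (0.00161). PKP3, a desmosomal plaque protein, had 99, 95 and 79 counts in WT and 42, 29 and 44 in S6K1-/- libraries and fell by 1.18 in log2 units (SE 0.179, edgeR adjusted p = 3.15e-04). PKP1, its paralog, had 26, 20 and 11 counts in WT and 1, 4 and 1 in S6K1-/- libraries (edgeR adjusted p = 7.89e-04). The count of lower genes was 0 without WT replicates 1 or 2 or S6K1-/- replicates 1 or 2, and 1 without S6K1-/- replicate 3. The median log2 fold change of the list was 0.03, and at an adjusted p under 0.05 it held 6 lower and 2 higher genes, beside 8.31% and 5.47% of the genes tested.

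For the lamins, 20 of 23 lamina partner genes and all 5 prelamin processing genes were tested, and none passed 0.001 with edgeR's or DESeq2's test. At an unadjusted p under 0.05, 2 partner genes were lower and 4 higher, and 1 processing gene was lower and none higher, beside 14.5% lower and 11.8% higher of the genes tested. LBR, the lamin B receptor, had 2923, 2919 and 2875 counts in WT and 3227, 3174 and 2950 in S6K1-/- libraries, a log2 fold change of 0.16 (SE 0.039, edgeR adjusted p = 0.0109). EMD, which encodes the lamin-binding membrane protein emerin, had 1493, 1609 and 1478 counts in WT and 1222, 1415 and 1142 in S6K1-/- libraries, with a log2 fold change of -0.22 (SE 0.053, edgeR adjusted p = 0.0118). FNTA, a farnesyltransferase subunit, had a log2 fold change of -0.10, and ICMT, which methylates the prelamin end, one of 0.06. The median log2 fold change was 0.05 for both lists.

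Vimentin and the simple keratins are used as markers of mesenchymal and epithelial states, so both gene lists were counted. Of 15 genes of the epithelial-mesenchymal transition list tested, 8 were lower and 1 was higher at an adjusted p under 0.001, beside 2.54% and 1.42% of the genes tested, and DESeq2's Wald test gave the same numbers. At an unadjusted p under 0.05, 9 were lower and 4 higher, beside 14.5% and 11.8% of the genes tested, and the median log2 fold change was -0.38. TAGLN fell by 1.25, TPM1 fell by 0.47, TWIST2 fell by 1.00, CALD1 fell by 0.32 and TPM2 fell by 0.38 on the log2 scale. Of these, TAGLN, TPM1, CALD1 and TPM2 encode actin-binding proteins and TWIST2 a transcription factor. MMP2, a matrix metalloprotease, rose by 0.25, and it did not pass 0.001 in 5 of the 6 fits that left out a library. The other genes of the list that were higher at an unadjusted p under 0.05 were CDH2, FN1 and SNAI1. CDH2 had a log2 fold change of 0.17 and passed an adjusted p under 0.05 (edgeR adjusted p = 0.0189). FN1 and SNAI1 had log2 fold changes of 0.16 and 0.22 and did not (edgeR adjusted p = 0.145 and 0.185). The lower count was 5 without WT replicate 1 or S6K1-/- replicates 2 or 3. Of 16 simple epithelium genes, 3 were lower and none was higher at an adjusted p under 0.001, beside 2.54% and 1.42% of the genes tested, with a median log2 fold change of -0.05 and the same counts by DESeq2's Wald test. At an unadjusted p under 0.05, 5 were lower and 1 higher, beside 14.5% and 11.8% of the genes tested. The tight junction genes CLDN7 and CLDN3 fell by 0.43 and by 0.75, and the adhesion gene EPCAM fell by 0.31 on the log2 scale, and EPCAM did not pass 0.001 in 4 of the 6 fits that left out a library (without WT replicates 1 or 3 or S6K1-/- replicates 1 or 2, edgeR adjusted p from 0.00103 to 0.00233).

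Markers of cell types that use VIM were also summed. The 12 neural progenitor and neuron markers had a summed level of 89.1 to 92.9 CPM in WT and 49.7 to 52.8 CPM in S6K1-/- libraries, where none was at 0 and 1 of 12 had at most 3 counts in every library. Most of that difference lay in STMN2, a neuronal microtubule regulator, with 1184, 1209 and 1204 counts in WT and 367, 364 and 330 in S6K1-/- libraries. Without STMN2 the other 11 markers summed to 40.4 to 41.0 CPM in WT and 34.0 to 37.6 CPM in S6K1-/- libraries. At an adjusted p under 0.05, 4 of the 9 tested were lower and 2 higher, beside 8.31% and 5.47% of the genes tested. FABP7 (-1.27), MAP2 (-0.85) and SOX1 (1.29, at most 17 counts in a library) passed 0.05 only (edgeR adjusted p = 0.00192, 0.00735 and 0.0174). DCX, a neuronal microtubule-associated protein, fell by 0.54 while PAX6, a progenitor transcription factor, rose by 0.76 on the log2 scale. DCX did not pass 0.001 with DESeq2's Wald test (adjusted p = 0.00139) or without any library other than WT replicate 2 (0.0012 to 0.0052), and PAX6 did not without WT replicate 1 or S6K1-/- replicates 2 or 3 (edgeR adjusted p from 0.00149 to 0.00228). The 12 mesenchyme and fibroblast markers summed to 485 to 508 CPM in WT and 476 to 497 CPM in S6K1-/- libraries, where DCN and FOXF1 were at 0 and 7 of 12 had at most 3 counts in every library. THY1, a surface glycoprotein that hESCs also carry, made up nearly all of that sum, with 475 to 498 CPM in WT and 471 to 491 CPM in S6K1-/- libraries and a log2 fold change of -0.02. The other 11 markers summed to 9.94 to 12.3 CPM in WT and 5.49 to 6.56 CPM in S6K1-/- libraries. Most of that difference lay in PDGFRB, a growth factor receptor, which fell by 1.34 on the log2 scale. PDGFRB had 7.56, 8.95 and 7.19 CPM in WT and 2.85, 3.72 and 2.76 CPM in S6K1-/- libraries. PDGFRA and POSTN had log2 fold changes of 0.17 and -0.53 and passed neither threshold (edgeR adjusted p = 0.633 and 0.168). The 12 endoderm markers summed to 17.5 to 19.4 CPM in WT and 12.4 to 13.8 CPM in S6K1-/- libraries, with TTR at 0 and 4 of 12 at 3 counts or fewer in every library, and CER1 fell by 2.29 on the log2 scale. HHEX, a transcription factor of that list, had 5.13 to 5.81 CPM in WT and 6.10 to 8.36 CPM in S6K1-/- libraries, which did not overlap, with a log2 fold change of 0.36 (edgeR adjusted p = 0.0646). FOXA2, another transcription factor of the list, had 5.59, 7.69 and 4.99 CPM in WT and a mean of 3.32 CPM in S6K1-/- hESCs, with a log2 fold change of -0.88 (edgeR adjusted p = 0.00108). Without HHEX the other 11 markers summed to 11.7 to 13.7 CPM in WT and 5.47 to 6.69 CPM in S6K1-/- libraries. The part of these cell types in the VIM difference was not tested, and in bulk RNA fewer cells with a transcript and less transcript per cell cannot be told apart. Of the pluripotent stem cell markers, DNMT3B, a DNA methyltransferase, fell by 0.35, whereas ZFP42, a zinc finger protein, had a log2 fold change of 0.17 and passed an adjusted p under 0.05 only (edgeR adjusted p = 0.00874). TDGF1 had a log2 fold change of -0.15 and also passed 0.05 only (edgeR adjusted p = 0.0308). At 0.05, 2 of 12 were lower and 1 higher, beside 8.31% and 5.47% of the genes tested. Every S6K1-/- library was below every WT library for 7 of the 12 and above for 1, beside 16.7% and 14% of the genes tested. Of the amnion and trophoblast markers IGFBP3 had a log2 fold change of -0.25 (edgeR adjusted p = 0.242) and HEY1 one of -0.15 (0.625).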

How the data were processed

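Bulk RNA sequencing of 3 WT and 3 S6K1-/- hESC libraries was analysed. According to the study's methods and the submitters' processing notes, reads were trimmed with Trim Galore 0.6.5, aligned to GRCh38 with Bowtie2 2.4.5 and assigned to genes with featureCounts, and the authors deposited the raw count per gene symbol. A second deposited table holds only the authors' own DESeq2 comparison and was not used. Which annotation release and strand setting were used is not given in the sources used here.

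Genes were filtered with filterByExpr, scaled by TMM and tested with edgeR 4.0.16 (quasi-likelihood F test, genotype as the only factor, R 4.3.3). P-values were adjusted by Benjamini-Hochberg over 19521 genes, with the study's threshold of 0.001 and 0.05 as an alternative. CPM uses the TMM-scaled totals. On simulated counts of 19256 genes with 200 changed by 1 on the log2 scale, 163 changed and 0 unchanged genes were called. Every gene was simulated with the same spread between libraries (the common dispersion), so genes with an outlying library were not covered. Exon lengths and positions came from GENCODE 44. Members and lists were chosen with earlier results of these data known. Beside the members and RPS6KB1, up to 5 genes of a list per direction were named by smallest adjusted p, or 2 where none passed. The antisense genes, KRT8P3, GABRP, THY1, HHEX, FOXA2, ZFP42 and genes listed as at 0 were named after their values were seen. So were CDH2, FN1, SNAI1, PDGFRA, POSTN, FABP7, MAP2, SOX1 and TDGF1. Alternatives were DESeq2's size factors and Wald test (DESeq2 1.42.0), no filter, at least 10 counts, a replicate block, each library left out, and pseudogene counts added to members. Adding antisense counts was chosen after seeing the data. Total counts limit the precision of low genes such as KRT7.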

Additional observations from a re-analysis of the deposited data

How the results depend on the processing

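VIM kept its direction and stayed past 0.001 under every alternative run, with a log2 fold change between -0.59 and -0.50, and adding the VIM-AS1 counts left it at an adjusted p of 8.69e-06 (edgeR's quasi-likelihood test). No other member passed 0.001 in the fit reported, and none did under the size factors or the Wald test of DESeq2, at least 10 counts in every library or added pseudogene or antisense counts.

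The number of lower members was 2 without the filter on low counts and with the replicate block, 4 at an adjusted p under 0.05, and from 1 to 2 with a library left out. At an adjusted p under 0.05 it was 3 with DESeq2's Wald test and from 2 to 4 with a library left out. At 0.001 the member added to VIM was KRT7, with log2 fold changes of -0.82 without the filter and -0.82 with the replicate block, and from -0.92 to -0.70 with a library left out. KRT18 ranged from -0.054 to 0.0052 with a library left out, turning from -0.03 to 0.0052 without WT replicate 2. The replicate numbers share no stated batch, and the deviations of libraries with the same number correlated at 0.018, 0.0017 and 0.032, and not every library correlated best with its own number, so the numbers do not pair the libraries.

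Over all genes, 982 lower and 591 higher were called without the filter and 1622 and 1067 at 0.05, against 496 and 278. With a library left out they ranged from 313 to 445 (lowest without S6K1-/- replicate 3) and from 175 to 235 (lowest without S6K1-/- replicate 1, and 179 without S6K1-/- replicate 2).
Without the filter, the lists held 1 lower other intermediate filament gene, 5 lower and 1 higher linker genes, 1 lower and 1 higher lamina partner and 5 lower epithelial genes. That filament gene was KRT81 (edgeR adjusted p = 9.08e-14), whose difference rested on WT replicate 2. The share of all genes called in that fit was not computed, so these counts stand without one. At 0.05 they held 1 lower pseudogene, 6 lower and 2 higher linker genes, 2 lower and 2 higher lamina partners and 2 higher epithelial-mesenchymal transition genes. Beside these, 8.31% of the genes tested were lower and 5.47% higher. With at least 10 counts, 1 linker gene was lower, with DESeq2's Wald test and with the replicate block 1 was higher, and the block left 0 higher epithelial-mesenchymal transition genes. With a library left out, from 0 to 2 linker genes and from 2 to 3 epithelial genes were lower, from 5 to 7 epithelial-mesenchymal transition genes were lower and from 0 to 1 higher. DCX was past 0.001 in the fit reported and not with the block (edgeR adjusted p = 0.00192). The cause of these shifts was not tested. With at most 143 counts in a library for KRT7 and fewer for KRT7-AS, small differences there were not detectable at this depth.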
